A study of Mus musculus with 8 samples.

Results

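Voltage-gated potassium channel subunits were examined in RNA-seq of mouse brain, as the 39 protein-coding genes of the Kv subunit families whose symbols run from Kcna to Kcnd and through Kcng, Kcnh, Kcnq, Kcns and Kcnv. They were chosen by symbol and annotation alone among the 54532 genes of the first table. The second table, of 28229 genes, holds 38 of them and lacks Kcna7. By family they were 8 Kv1 genes (Kcna), 2 Kv2 genes (Kcnb), 4 Kv3 genes (Kcnc), 3 Kv4 genes (Kcnd), 5 Kv7 genes (Kcnq), 8 EAG/ERG/ELK genes (Kcnh) and 9 silent subunits (Kcng, Kcns and Kcnv).

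The series holds 8 libraries of C57BL/6 mice taken on Day 21, in 4 groups of 2. The PTS + RS group had photothrombotic stroke followed by restraint stress, and the RS group had restraint stress without stroke. All 4 of these libraries are labelled cortex. The paper describes the tissue sequenced for this comparison as damaged cortex, and in a legend as cortex near the damage. In the second experiment all mice had photothrombotic stroke and restraint stress, and received either RGFP109, an inhibitor that the labels name for HDAC3, at 60 mg/kg by subcutaneous injection daily, or NaCl. Replicate 1 of both RGFP109 and NaCl is labelled cortex and replicate 2 of both is labelled amygdala, so that replicate number and labelled tissue cannot be told apart. By the methods the mice were male, and an age is stated only for those of a behavioural test. The sources do not say whether a library was 1 mouse or a pool, and p-values therefore measure the spread between these libraries, which may be technical in part.

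Voltage-gated potassium channels open on depolarization and carry potassium out of the cell, which repolarizes the membrane, ends the action potential and limits repetitive firing. A channel is a tetramer around a pore whose selectivity filter strips potassium ions of water. Kv1 channels sit along axons and terminals, Kv2 channels on the soma and proximal dendrites, Kv3 channels allow fast firing, Kv4 channels give the dendritic A-type current, and Kv7 channels give the muscarine-sensitive M-current. Kcnh genes encode the EAG, ERG and ELK channels, which act near the resting potential. Silent subunits form no channel alone and alter the gating of Kv2 channels once they join them.

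The selectivity filter is the stretch of sequence that these genes share and the name rule did not use. The codons for glycine, an aromatic residue and glycine lie at its core. They were found in a coding transcript of all 39 genes, with tyrosine as the aromatic residue in 31 and phenylalanine in 8, and the 8 were the Kcnh genes. Windows of coding sequence are shown for genes on which the results below turn, one or more from the Kv1, Kv2, Kv7, Kcnh and silent groups, 5′ to 3′ on the coding strand of GRCm38 with the GENCODE M21 annotation. Each lies within 1 exon, and capitals mark the 3 codons.
Kcna4, chr2:107296486-107296518, + strand: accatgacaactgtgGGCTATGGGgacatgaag
Kcnb2, chr1:15710037-15710069, + strand: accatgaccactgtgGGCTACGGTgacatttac
Kcnq3, chr15:66023722-66023754, − strand: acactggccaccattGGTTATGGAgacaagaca
Kcnv1, chr15:45109280-45109312, − strand: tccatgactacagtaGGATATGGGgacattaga
Kcng3, chr17:83587905-83587937, − strand: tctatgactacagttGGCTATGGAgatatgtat
Kcnh3, chr15:99232920-99232952, + strand: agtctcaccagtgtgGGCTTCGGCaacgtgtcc
Kcnh4, chr11:100750284-100750316, − strand: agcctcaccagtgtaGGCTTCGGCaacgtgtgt
Kcnh2, chr5:24325546-24325578, − strand: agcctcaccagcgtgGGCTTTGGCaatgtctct

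Depth on genes was between 15902013 and 21712033 counts a library, and the Kv genes together took between 0.286% and 0.355% of them. One library went against its label. In NaCl replicate 1, labelled cortex, the summed level of 10 olfactory bulb markers was 1485 CPM (counts scaled to library size), against 25.9 to 47.4 CPM in the other 7 libraries, and all 10 markers were highest there. Its most abundant olfactory bulb genes, Cdhr1 and Th, stood at 534 and 184 CPM, and no other library passed 10.2 and 2.77 CPM. Its summed inhibitory neuron markers were 2396 CPM against 777 to 1044 CPM elsewhere, but Gad1 alone made up 1572 CPM of that sum. Gad1, Gad2, Slc32a1, Npy and Adarb2 were highest in that library. Pvalb, Sst and Lhx6 were lowest there, at 6.14, 42.9 and 3.41 CPM, and Vip and Tac1 lay within the range of the others. In the 2 libraries labelled amygdala the summed striatum markers were 1534 and 1689 CPM against 303 to 401 CPM in the other 6, whereas 1 of 10 amygdala markers, Foxp2 being that gene, was higher in both than in all others. Choroid plexus markers also varied, from 15.8 CPM in RGFP109 replicate 2 to 3857 CPM in RS replicate 2. In what follows, values with all libraries stand beside those without NaCl replicate 1 where it moved them most.

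Levels were compared between genes as FPKM, the deposited fragments per kilobase of gene scaled to library depth, which were scaled separately in the 2 tables. Over the 8 libraries, 14 genes had a median of at least 10 FPKM, 17 lay between 1 and 10 FPKM and 8 were under 1 FPKM. Kcnc1, a Kv3 subunit of fast-firing neurons, was among the most abundant, with 22.5 and 23.2 FPKM after PTS + RS, 25.9 and 25.5 after RS, 26.3 and 24.2 with RGFP109 and 35.8 and 25.4 with NaCl.

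Its median was 25.4 FPKM, close to that of Kcnc4, another Kv3 gene, with 24.9 FPKM, and of Kcnh3 of the ELK branch with 22.7 FPKM. Across libraries these 3 ranged from 22.5 to 35.8 FPKM, 11.7 to 32.6 FPKM and 14.6 to 39.3 FPKM, so that their order among themselves does not hold beyond the spread. At the other end Kcnh8, an ELK gene, had a median of 0.134 FPKM and Kcnq1, known from heart and epithelia, 0.187 FPKM. Kcnq1 shares its locus with the antisense transcript Kcnq1ot1, and whether the counting used strand is not settled by the sources, so that its reads may not be its own.

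Grouped by family, the Kv3 genes made up between 19.6% and 27.4% of the summed FPKM of all members in a library, the Kv7 genes between 10.7% and 20.7%, and the Kv1 genes between 13.4% and 18.8%. Kcnh genes took 9.83% to 11.8% in the 5 cortex-labelled libraries other than NaCl replicate 1, 17.7% and 19.3% in those labelled amygdala, and 23.2% in NaCl replicate 1. The silent subunits held 11.5% to 13.4% in every library but NaCl replicate 1, where they held 5.67%. The groups in which NaCl replicate 1 was the extreme library included the Kcnh and Kv4 groups, in which it was highest, and the Kv7 and silent groups, in which it was lowest.

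**Figure D1:**
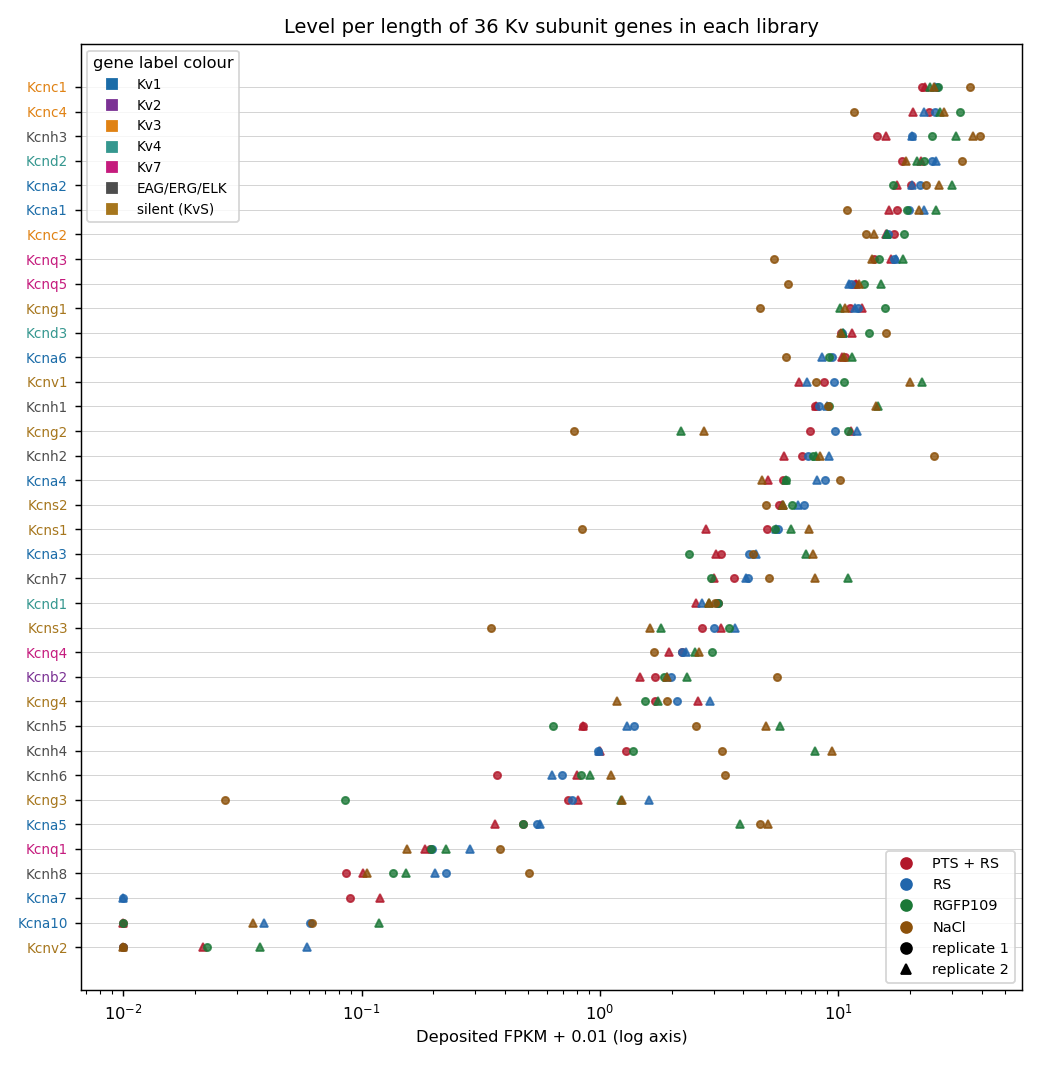
Deposited FPKM of 36 of the 39 genes (rows, ordered by median) in each of the 8 libraries, with 0.01 added for a log axis; colours mark the groups, circles replicate 1 and triangles replicate 2, with gene labels coloured by family. Kcnc1, Kcnc4 and Kcnh3 lie near the top, at medians of 25.4, 24.9 and 22.7 FPKM, and points of NaCl replicate 1 fall away from the rest for genes such as Kcnh2, Kcns1 and Kcns3.

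The first comparison, PTS + RS against RS, asks what stroke adds to restraint stress in the cortex. Kv subunit genes lay mostly on the lower side in the PTS + RS group, by small amounts. Of the 36 tested, 31 had a lower estimate (86.1%, against 50.3% of all 17581 tested genes), with a median log2 fold change of −0.21 against −0.0015 for all genes. Called at an adjusted p under 0.05 were 2 of them, both lower, and none higher, where 0.586% of all tested genes were called lower and 2.96% higher. Values of the PTS + RS libraries lay wholly below those of the RS libraries for 20 genes and wholly above for 3, against 24.5% and 25.7% of all tested genes. At an unadjusted p under 0.05, 12 were lower and 1 was higher (7.55% and 10.3% of all genes).

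Kcna4, the inactivating Kv1 subunit of axons and terminals, fell most among the 2 that were called. It stood at 28.6 and 24.7 CPM in the PTS + RS libraries and at 43.0 and 39.7 CPM in the RS libraries. Both PTS + RS values were below both RS values, and the level fell by 35.6% (log2 fold change −0.63, SE 0.11, adjusted p = 0.0326). Kcnh3, an ELK channel known to restrain firing of forebrain pyramidal neurons, had 84.6 and 92.1 CPM against 118 and 118 CPM. It fell by 25.1%, again with no overlap (log2 fold change −0.42, SE 0.078, adjusted p = 0.0375). Neither fall reached 2-fold.

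Both calls were lost without either RS library, while the falls stayed about as large. Without RS replicate 1 the log2 fold change was −0.58 for Kcna4 (adjusted p = 0.161) and −0.43 for Kcnh3 (adjusted p = 0.216). Without RS replicate 2 it was −0.70 (adjusted p = 0.069) and −0.42 (adjusted p = 0.255), and no Kv gene was called in either case. Without PTS + RS replicate 1 or without replicate 2, 7 were called each time, with 9.7% and 14.6% of all genes called. Kcna4 and Kcnh3 were in both sets of 7. With no filter on low counts, 4 were called, where 6.1% of all genes were.

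The first 250 bases of the RefSeq promoter entry of Kcna4 are shown (chr2:107290339-107290588, + strand, GRCm38.p6). Kcna4 was taken because it had the larger of the called falls and such an entry. The stretch stops short of the gene start used for the counts, at 107290639. Its GC content was 65.2%. Capitals mark the GC box, GGGCGG on either strand, here once and on the reverse strand.
Kcna4: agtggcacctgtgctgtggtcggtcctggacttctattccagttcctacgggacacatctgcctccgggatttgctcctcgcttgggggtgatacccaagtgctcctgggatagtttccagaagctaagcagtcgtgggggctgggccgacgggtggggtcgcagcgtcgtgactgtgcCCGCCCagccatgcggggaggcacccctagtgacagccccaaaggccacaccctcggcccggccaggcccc
Of the 39 genes, 24 had such an entry. A GC box was present in 58.6% of their 29 entries and in 32.7% of all 32851 entries, with a median GC content of 62.8% against 52.4%. These are counts of letters and not of binding.

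Among the other Kv1 genes, Kcna1, the axonal subunit named in episodic ataxia, had 85.0 and 78.3 CPM with stroke and stress and 95.3 and 111 CPM with stress alone (log2 fold change −0.33, adjusted p = 0.131). For its frequent partner Kcna2 the values were 243.1 and 210.5 CPM against 262.9 and 243.3 CPM (log2 fold change −0.16, adjusted p = 0.436). Neither passed the threshold, although neither overlapped. Kcna6, also axonal, had the highest estimate of all 36, with 63.9 and 61.7 CPM against 56.3 and 51.1 CPM and a log2 fold change of 0.22 (adjusted p = 0.246).

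Kcna3 is the subunit best known in lymphocytes and activated microglia. It had 6.19 and 5.86 CPM after PTS + RS and 8.06 and 8.58 CPM after RS, with a log2 fold change of −0.46 that did not pass (adjusted p = 0.239). Summed markers of microglia moved the other way, at 1228 and 1032 CPM against 296 and 268 CPM.

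Kcnb2, a delayed rectifier of the Kv2 family, had 25.9 and 22.4 CPM against 30.2 and 29.0 CPM without overlap, and did not pass (adjusted p = 0.256). Of the fast Kv3 subunits, Kcnc1 had 214 and 220.3 CPM against 247 and 242 CPM and Kcnc2 123 and 114 CPM against 116 and 115 CPM. Kcnc1 did not overlap between groups (adjusted p = 0.281), and Kcnc2 did.

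Estimates of the 2 main Kv4 genes lay apart. Kcnd2, the chief A-type subunit of pyramidal dendrites, had 96.6 and 115 CPM after PTS + RS and 129 and 134 CPM after RS (log2 fold change −0.31, SE 0.10, adjusted p = 0.154). For Kcnd3 the values were 99.5 and 110.1 CPM and 100.5 and 101 CPM, which overlap. The difference between these 2 genes was not tested.

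Kcnq3, an M-current subunit, was on the lower side without passing. It had 211 and 247 CPM against 254 and 259 CPM (log2 fold change −0.16, adjusted p = 0.418). Kcnq5, another M-current gene of the forebrain, was among the 3 highest estimates, with 91.1 and 91.4 CPM against 87.1 and 85.6 CPM and a log2 fold change of 0.079 (adjusted p = 0.627).

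Of the 8 Kcnh genes, 7 had lower estimates. Values lay wholly below those of the RS libraries for 6 and wholly above for 1, against 24.5% and 25.7% of all tested genes. The lowest estimate of all 36 was that of Kcnh8, at 0.350 and 0.419 CPM against 0.993 and 0.883 CPM (log2 fold change −1.27, SE 0.49, adjusted p = 0.239), which rests on 6 and 7 counts against 18 and 14. Kcnh5, an EAG gene, followed with 3.44 and 3.41 CPM against 5.63 and 5.24 CPM (log2 fold change −0.66, SE 0.22, adjusted p = 0.173). Kcnh1, the founding EAG gene, had 59.1 and 59.4 CPM against 61.2 and 66.2 CPM, and Kcnh4 was the exception, with 5.08 and 3.95 CPM against 3.86 and 3.91 CPM and a log2 fold change of 0.22 (adjusted p = 0.701).

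All 8 tested silent subunits had estimates below 0, from −0.61 (Kcng3) to −0.0067 (Kcng1), and none was called. Kcns2, a Kv2 modifier, stood at 31.9 and 32.4 CPM against 40.5 and 38.0 CPM (log2 fold change −0.29, adjusted p = 0.181). Kcnv1 stood at 40.4 and 31.6 CPM against 44.2 and 34.1 CPM and overlapped. Kcna7, Kcna10 and Kcnv2 had too few counts to be tested. Kcna7 had 3 and 4 counts in the PTS + RS libraries and 0 in both RS libraries, where a count of 0 allows up to 3, a limit for counting error only.

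**Figure D2:**
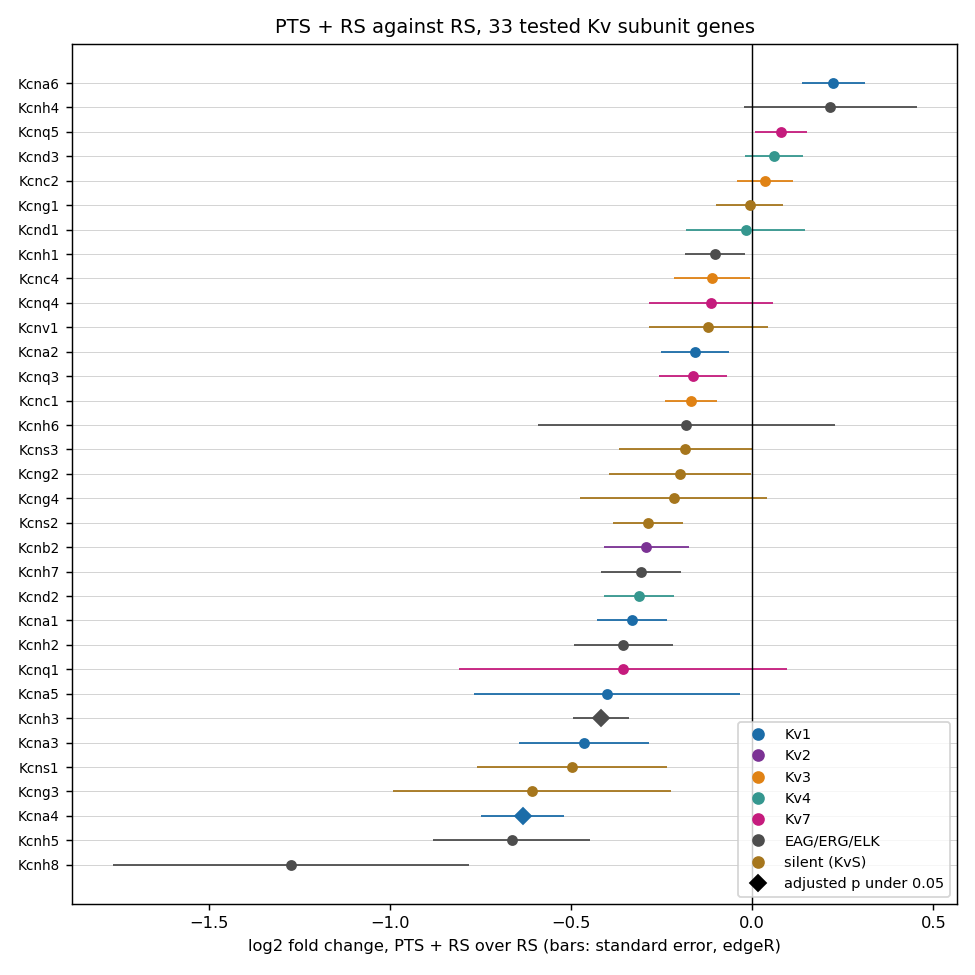
Log2 fold change of PTS + RS over RS (horizontal axis, bars give the standard error of the edgeR fit, n = 2 libraries a group) for 33 of the 36 tested genes, coloured by family, with diamonds for an adjusted p under 0.05. Of the estimates shown, 28 lie below 0, and the diamonds are Kcna4 at −0.63 and Kcnh3 at −0.42.

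Auxiliary subunits dock onto these channels and alter their gating or transport. Of the 13 tested auxiliary subunits, 7 had a lower and 6 a higher estimate, with a median log2 fold change of −0.053. One was called: Kcne1l, which modifies Kcnq1 channels, had 14.4 and 11.0 CPM against 3.64 and 4.29 CPM and rose (log2 fold change 1.68, SE 0.21, adjusted p = 0.00839). The lowest estimate was that of Kcne2, abundant in choroid plexus, with 9.28 and 0.239 CPM against 12.4 and 24.8 CPM (adjusted p = 0.331). It followed the choroid plexus markers, whose sums were 1633 and 48.2 CPM against 1854 and 3857 CPM in the same libraries, and their part in its value was not tested.

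Of the 10 genes of the axonal Kv1 complex, such as the adhesion molecule Cntnap2 and the scaffold Dlg4, 8 had lower estimates and none was called (median −0.053). Their extremes were Dlg4 at −0.25 and Dlg2 at 0.038.

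Other channel families gave medians of −0.20 for 10 two-pore Kcnk genes, −0.12 for 13 inward rectifier Kcnj genes and 9 calcium channel Cacna1 genes, −0.097 for 7 sodium channel Scn genes and −0.016 for 8 calcium- or sodium-activated potassium channels. The called genes among these potassium channels rose: Kcnj10, the astrocytic inward rectifier, with 261 and 247 CPM against 195 and 173 CPM (log2 fold change 0.46, adjusted p = 0.0375), and Kcnk6 with 13.2 and 10.2 CPM against 3.59 and 3.41 CPM (log2 fold change 1.74, adjusted p = 0.00684).

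Summed cell type markers were also set beside these values. The 12 general neuron markers summed to 7401 and 8033 CPM in PTS + RS libraries and 8491 and 8218 CPM in RS libraries (median log2 fold change −0.11, none called), and astrocyte markers to 7408 and 6109 CPM against 4068 and 4111 CPM. Of the astrocyte sums, Gfap gave 2058 and 1452 CPM against 372 and 354 CPM. Fgfr3 lay wholly below the RS libraries, Aldh1l1 and Sox9 overlapped, and the other astrocyte markers lay wholly above. The part of these marker lists in the Kv values was not tested. In such bulk tissue, fewer neurons and less channel RNA per neuron cannot be told apart.

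The second comparison, RGFP109 against NaCl in mice with stroke and restraint stress, asks what the inhibitor did. No Kv gene was called, and neither was any of the 17565 tested genes (0%), by edgeR. At an unadjusted p under 0.05 there were 206 genes and none of the 36 Kv genes by edgeR. DESeq2 also called 0, with 433 genes and 3 Kv genes at an unadjusted p under 0.05, and limma-voom called 0, with 141 and 0. Estimates were higher with RGFP109 for 20 genes and lower for 16, with a median log2 fold change of 0.041 against −0.016 for all genes. Values did not overlap for 5 higher and 4 lower genes, against 12.8% and 13.8% of all tested genes. With the replicate number as a block, 0 genes were called as well.

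NaCl replicate 1 held the extreme value for many Kv genes. It lay at least 2-fold above the highest of the other 3 libraries for 4 of them (Kcnb2, Kcnh2, Kcnh6 and Kcnh8), where 3.18% of all tested genes did, and at least 2-fold below the lowest for 7 (Kcnc4, Kcng1, Kcng2, Kcng3, Kcnq3, Kcns1 and Kcns3), where 4.25% did. RGFP109 replicate 1 was so placed for 4 Kv genes, above for Kcng2 (1.29% of all genes) and below for Kcna5, Kcnh4 and Kcnh5 (1.69%), and neither replicate 2 library for any. The olfactory bulb markers given above move with these values, and their part in them was not tested. Kcng3 is in the set of 7 on 1 count in NaCl replicate 1, against 4 counts in RGFP109 replicate 1.

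Kcnh2, the ERG channel that also repolarizes the heart, had 124 CPM in NaCl replicate 1, against 40.7 CPM in NaCl replicate 2 and 38.1 and 39.1 CPM with RGFP109. Kcnb2 had 84.5 CPM there, against 28.9 CPM and 28.0 and 35.2 CPM. The 3 lowest estimates with RGFP109 in the fit were those of Kcnh6 (−1.38, SE 0.59), Kcna5 (−1.18, SE 0.91) and Kcnh8 (−1.13, SE 0.88), as log2 fold changes that did not pass. Without NaCl replicate 1 they were −0.37, −1.22 and 0.49, so that the sign of Kcnh8 turned. Their CPM were 2.92 and 3.18 with RGFP109 against 11.9 and 3.91 with NaCl for Kcnh6, an ERG gene, 1.33 and 11.0 against 13.7 and 14.6 for Kcna5, and 0.571 and 0.654 against 2.28 and 0.435 for Kcnh8. Kcna5, a delayed rectifier best known in atrium and smooth muscle, was low in RGFP109 replicate 1 alone of these 4 libraries, at 0.465 FPKM against 3.86 to 5.07 FPKM. The cortex libraries of the first experiment held between 0.354 and 0.549 FPKM, so that across all 8 it is the other 3 of the second experiment that are high.

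The highest estimates were those of 2 silent subunits and an M-current subunit. Kcng2 had 32.8 and 6.54 CPM with RGFP109 and 2.33 and 8.21 CPM with NaCl (log2 fold change 1.89, SE 0.96), Kcns3 had 11.0 and 5.70 CPM against 1.08 and 5.11 CPM (1.43, SE 0.80), and Kcnq3 had 219 and 276 CPM against 79.8 and 206 CPM (0.79, SE 0.48). In all of them NaCl replicate 1 was the lowest of the 4 libraries, and without it the estimates were 1.24, 0.70 and 0.26. Silent Kcns1 followed the same form, at 2.28 CPM in NaCl replicate 1 and between 14.7 and 20.6 CPM in the other 3.

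**Figure D3:**
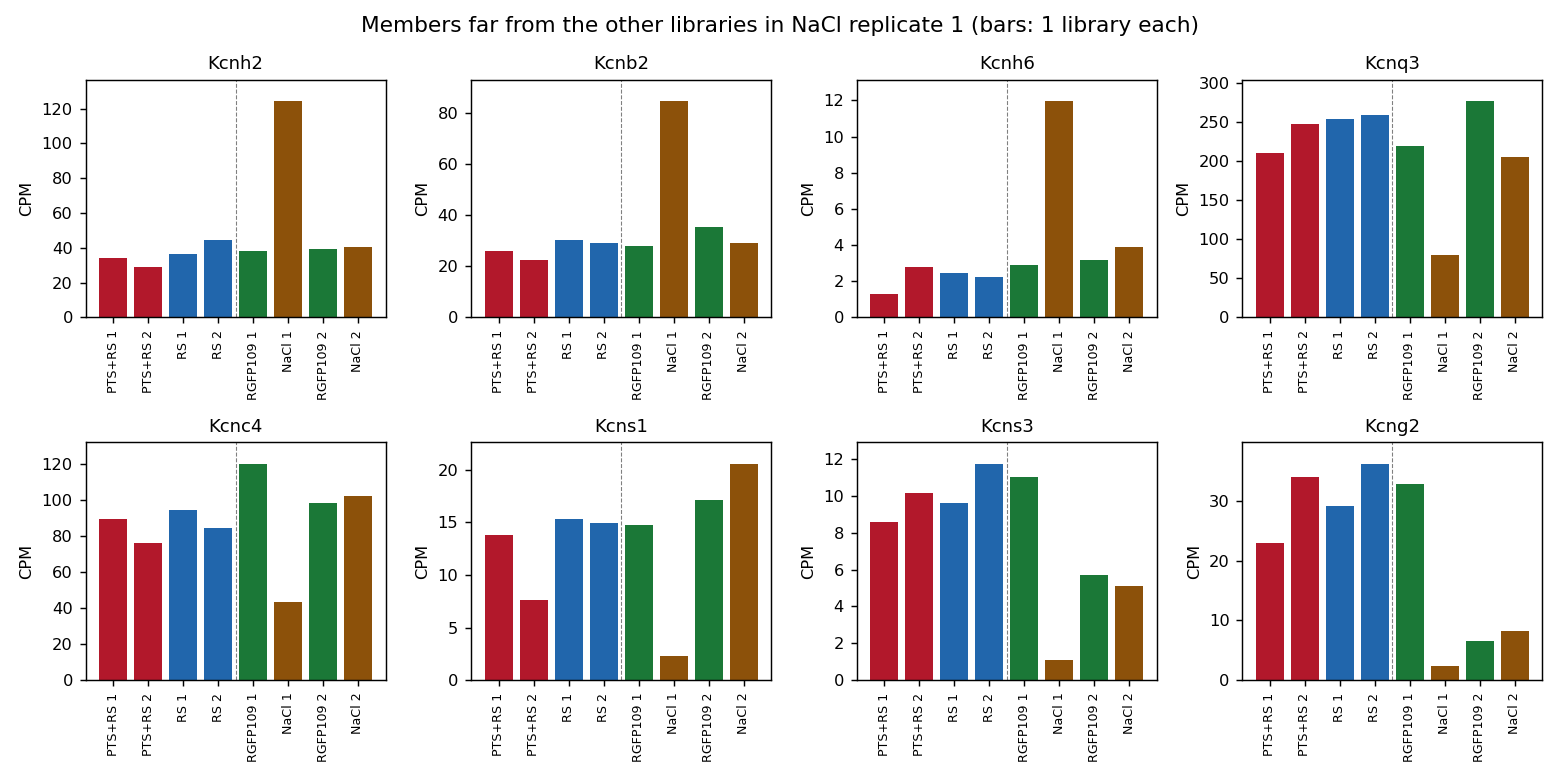
CPM of 8 of these genes in each of the 8 libraries, 1 bar a library and axes from 0, with the first experiment left of the dashed line (CPM were scaled separately in the 2 experiments). NaCl replicate 1 is the highest bar for Kcnh2 (124 CPM), Kcnb2 and Kcnh6 and the lowest for Kcnq3, Kcnc4, Kcns1, Kcns3 and Kcng2.

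The core subunits gave smaller estimates, and none of them passed. Among the axonal subunits, Kcna1 had 93.2 and 123 CPM with RGFP109 against 52.7 and 105 CPM with NaCl, Kcna2 202 and 359 CPM against 281 and 317 CPM and Kcna4 29.2 and 29.2 CPM against 49.9 and 23.1 CPM. All 3 overlapped between treatments. Of the Kv3 and Kv4 subunits, Kcnc1 had 249 and 229 CPM against 342 and 241 CPM, Kcnc2 135 and 114 CPM against 94.2 and 102 CPM, Kcnd2 119 and 110.3 CPM against 173 and 99.5 CPM and Kcnd3 129 and 100.2 CPM against 154 and 98.7 CPM. Kcnc2 alone of these 4 did not overlap, at a log2 fold change of 0.35 (SE 0.18), or 0.29 without NaCl replicate 1. Kcnh3 had 143 and 179.8 CPM against 229 and 212 CPM without overlap (log2 fold change −0.45, SE 0.20, and −0.40 without NaCl replicate 1).

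Within replicate number 1 the 2 libraries differed at least 2-fold for 15 of the 36 Kv genes (41.7%, against 15.5% of all tested genes), from −3.26 for Kcna5 to 3.75 for Kcng2 on the log2 scale. Within replicate number 2, which does not involve NaCl replicate 1, no Kv gene differed 2-fold, where 2.84% of all tested genes did. There the log2 ratios ran from −0.40 for Kcna5 to 0.56 for Kcng4 with a median of 0.033. For 19 of 36 genes (52.8%) the 2 ratios had opposite signs, as they had for 51.3% of all tested genes. Kcnh3 had log2 ratios of −0.67 and −0.24, Kcna4 of −0.77 and 0.34, and Kcnh2 of −1.70 and −0.058. Each ratio sets 1 library against 1 other and has no replicate check. The 2-fold difference of Kcng3 within replicate number 1 rests on 4 counts with RGFP109 and 1 with NaCl.

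**Figure D4:**
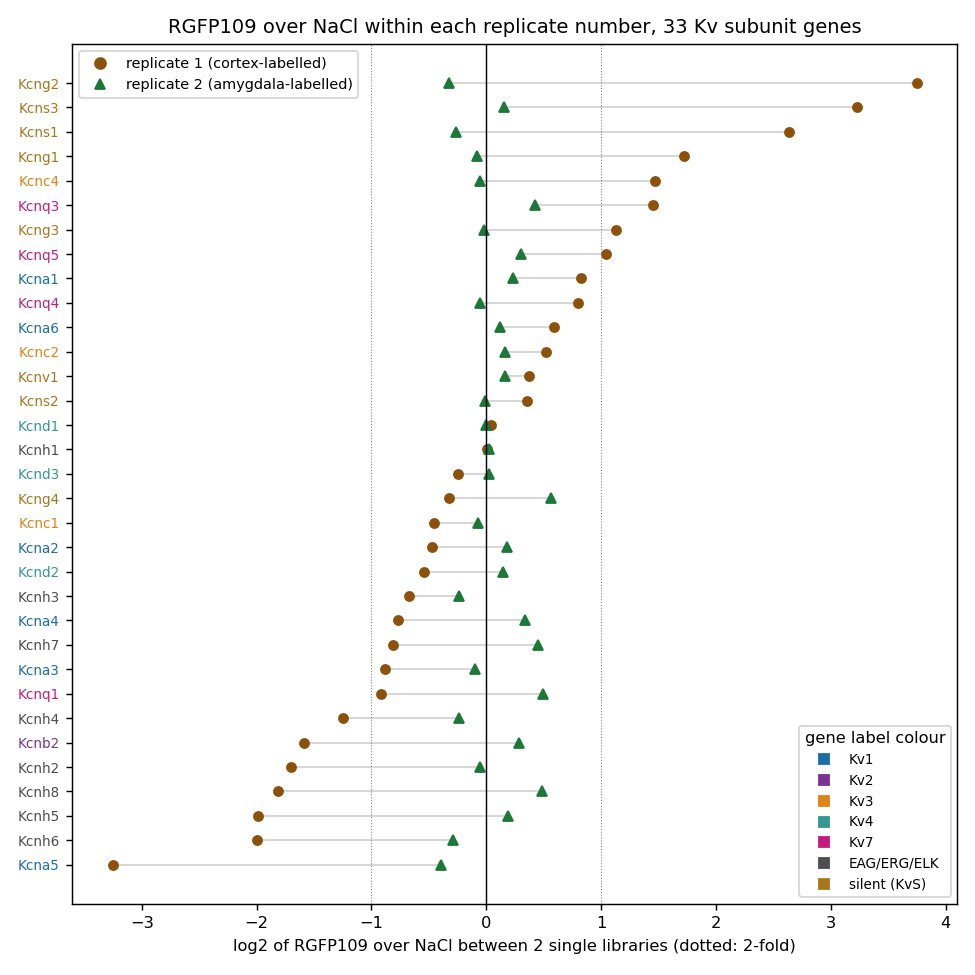
Log2 ratio of RGFP109 over NaCl (horizontal axis, single libraries) within replicate number 1 (circles) and 2 (triangles) for 33 of the 36 tested genes, with gene labels coloured by family and dotted lines at 2-fold. Circles spread from −3.26 to 3.75, whereas all triangles lie between −0.40 and 0.56.

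Of 12 tested auxiliary subunits 6 had a higher and 6 a lower estimate with RGFP109, from −1.43 for Kcnab3, a cytoplasmic Kv1 partner, to 0.73 for Kcnab1. Kcnab3 had 25.6 and 55.4 CPM with RGFP109 against 158 and 61.1 CPM with NaCl, and Kcnab1 115 and 125 CPM against 18.4 and 126 CPM. NaCl replicate 1, given first in each NaCl pair, was again the extreme, and without it the estimates were −0.59 and −0.075. Of 10 axonal complex genes 7 were higher and 3 lower, from Dlg1 at −0.12 to Lgi1, a secreted Kv1 partner, at 0.83 (−0.28 and 0.43 without NaCl replicate 1), and none of either list was called.

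A further comparison set the 2 libraries labelled amygdala against the 2 labelled cortex within the second experiment. Which library came from which tissue rests on the labels alone. A display in the study may name the tissues in the other order, and how it maps to replicate numbers is not settled. A swap would turn the sign of every difference in this comparison. With all 4 libraries edgeR called none of 17565 genes (0%) and no Kv gene, limma-voom called 0 as well, and DESeq2 called 416 genes (2.37%) and 4 Kv genes, Kcng3, Kcnh4, Kcnh7 and Kcnv1. At an unadjusted p under 0.05 edgeR gave 1970 genes (11.2%) and 8 Kv genes, of which 7 were higher. Amygdala-labelled values did not overlap the others for 12 higher and 6 lower Kv genes, against 21.6% and 22.4% of all genes.

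Without NaCl replicate 1, 15 of 36 Kv genes were called, 11 higher in the amygdala-labelled libraries and 4 lower, where 8.27% of all 18613 tested genes were called higher and 5.51% lower. The cortex side then rests on RGFP109 replicate 1 alone, which is assumed to vary like the other libraries. The amygdala side holds both an RGFP109 and a NaCl library, so treatment is not balanced between the labels. The only spread in that fit is between those amygdala-labelled libraries, and its p-values rest on it. Kcng2, Kcna5, Kcnh4 and Kcnh5, for which RGFP109 replicate 1 stood apart above, are among the genes called. Without RGFP109 replicate 1, when the cortex side is NaCl replicate 1, 25 were called, with 28.7% of all genes, and without either amygdala-labelled library none was.

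Kcnh genes made up 5 of the 11 that were higher. Kcnh4, of the ELK branch, had 31.6 and 37.2 CPM in the amygdala-labelled libraries, 5.39 CPM in RGFP109 replicate 1 and 13.0 CPM in NaCl replicate 1. Its log2 fold change was 1.90 (SE 0.44, adjusted p = 0.303) with all 4 libraries and 2.69 (SE 0.21, adjusted p = 1.75e-13) without NaCl replicate 1. The 4 cortex libraries of the first experiment held between 0.971 and 1.27 FPKM, and the amygdala-labelled ones 8.01 and 9.38 FPKM, on tables scaled separately.

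Kcnh5, the second EAG gene, had 23.1 and 20.3 CPM against 2.54 and 10.4 CPM, and the log2 fold change went from 1.74 (SE 0.65) to 3.11 (SE 0.26, adjusted p = 7.70e-13) without NaCl replicate 1. Kcnh7, an ERG gene of the brain, had 167 and 122 CPM against 44.5 and 78.5 CPM, with 1.23 (SE 0.33) and 1.71 (SE 0.17, adjusted p = 1.10e-10). Kcnh1 was the steadiest, at 108 and 106 CPM against 67.5 and 67.1 CPM, with log2 fold changes of 0.67 (SE 0.13) and 0.67 (SE 0.15, adjusted p = 9.33e-04). For these 3 genes the first experiment's cortex libraries held between 0.837 and 1.38, between 3.01 and 4.17 and between 7.98 and 8.99 FPKM, below the lowest amygdala-labelled values of 4.99, 8.01 and 14.4 FPKM. Kcnh3, the fifth, had 179.8 and 212 CPM against 143 and 229 CPM, where NaCl replicate 1 was the highest of all.

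Kcnv1, a silent subunit that damps Kv2 channels, had 103 and 92.2 CPM in the amygdala-labelled libraries and 48.4 and 37.4 CPM in the others. The log2 fold change was 1.19 (SE 0.18, adjusted p = 0.237), and 1.03 (SE 0.16, adjusted p = 3.02e-06) without NaCl replicate 1.

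Kcng3, another silent subunit, had the largest estimate of all, but on few counts. Its libraries held 87 and 76 counts under the amygdala label and 4 and 1 under the cortex label, and the log2 fold change was 4.70 (SE 0.60, adjusted p = 0.206). Cortex libraries of the first experiment held 42 to 85 counts and between 0.724 and 1.59 FPKM, close to the 1.21 and 1.23 FPKM under the amygdala label. Kcng3 was therefore low in 2 cortex-labelled libraries rather than high under the amygdala label, when all 8 libraries are set side by side.

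Of the Kv1 genes, Kcna3 had 13.9 and 14.9 CPM against 4.50 and 8.42 CPM (1.15, SE 0.34), and 1.69 (SE 0.25, adjusted p = 1.28e-06) without NaCl replicate 1. Kcna5 had 11.0 and 14.6 CPM against 1.33 and 13.7 CPM (0.77, SE 0.98) and was called higher without NaCl replicate 1 (3.27, SE 0.32, adjusted p = 8.91e-11), while its level in NaCl replicate 1, 13.7 CPM, lay within those of the amygdala-labelled libraries. Kcna2 was called higher as well (0.76, SE 0.13, adjusted p = 4.00e-05, against 0.49 with all 4 libraries). Kcna1 and Kcna4 were not, at 0.30 and −0.15 without that library and 0.64 and −0.60 with it.

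The 4 genes called lower without NaCl replicate 1 included the silent subunits Kcng2, Kcns3 and Kcng1. Kcng2 had 6.54 and 8.21 CPM under the amygdala label, 32.8 CPM in RGFP109 replicate 1 and 2.33 CPM in NaCl replicate 1. Its log2 fold change was −2.14 (SE 0.19, adjusted p = 7.77e-12) without NaCl replicate 1, −1.25 (SE 1.13) with all 4 libraries, and 1.66 without RGFP109 replicate 1. The sign therefore turned with the cortex-labelled library used. It did so too for Kcns3, at −1.01 (SE 0.24) without NaCl replicate 1 and −0.16 (SE 0.99) with all 4 libraries, and for Kcng1, at −0.58 (SE 0.15) and 0.031 (SE 0.56). Between the NaCl libraries alone, the log2 ratio of amygdala- over cortex-labelled was 2.13 for Kcns3 and 1.18 for Kcng1. The first experiment's cortex libraries, scaled separately, held 7.58 to 12.05 FPKM of Kcng2 and 2.69 to 3.69 FPKM of Kcns3. RGFP109 replicate 1, at 10.95 and 3.48 FPKM, lay within these ranges. NaCl replicate 1, at 0.771 and 0.338 FPKM, and both amygdala-labelled libraries lay below them. For Kcng1 the range was 11.2 to 12.6 FPKM. RGFP109 replicate 1 lay above it (15.7 FPKM), and NaCl replicate 1 (4.69 FPKM) and both amygdala-labelled libraries below it.

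The M-current gene Kcnq3 was not among those called. It had 276 and 206 CPM against 219 and 79.8 CPM, with a log2 fold change of 0.69 with all 4 libraries and 0.15 without NaCl replicate 1. Kcnd2 and Kcnd3, the dendritic A-type genes, had 110.3 and 99.5 CPM against 119 and 173 CPM and 100.2 and 98.7 CPM against 129 and 154 CPM. With all 4 libraries neither Kv4 gene overlapped between labels, at −0.47 and −0.51, and without NaCl replicate 1 neither passed (−0.17 and −0.36, adjusted p = 0.555 and 0.0836). Without that library the fast subunits Kcnc1 and Kcnc2 gave −0.073 and −0.32 and the silent Kcns2 gave −0.11, against −0.33, −0.091 and 0.042 with it, and none of these passed.

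With all 4 libraries the extreme auxiliary subunits in this comparison were Kcnip1 at −1.08 and Kcnab1 at 0.92, and without NaCl replicate 1 these were 0.072 and 0.14. Of 13 auxiliary subunits tested without that library, 7 had a higher and 6 a lower estimate, from −5.94 for Kcne2 to 1.55 for Kcne4. The cortex side of that fit is RGFP109 replicate 1 alone. All 10 axonal complex genes had higher estimates with all 4 libraries, from Dlg4 at 0.043 to Dlg1 at 0.55, and none was called. Without NaCl replicate 1, 7 were higher and 3 lower, from Lgi1 at −0.45 to Dlg1 at 0.78. Striatum markers, which moved with the amygdala label in all 10 genes, move with the Kv differences as well, and their part in them was not tested. Kcne2, at −5.94 without NaCl replicate 1, moved with the choroid plexus markers. The sums of these were 15.8 and 18.4 CPM under the amygdala label and 1530 CPM in RGFP109 replicate 1, and their part was not tested.

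**Figure D5:**
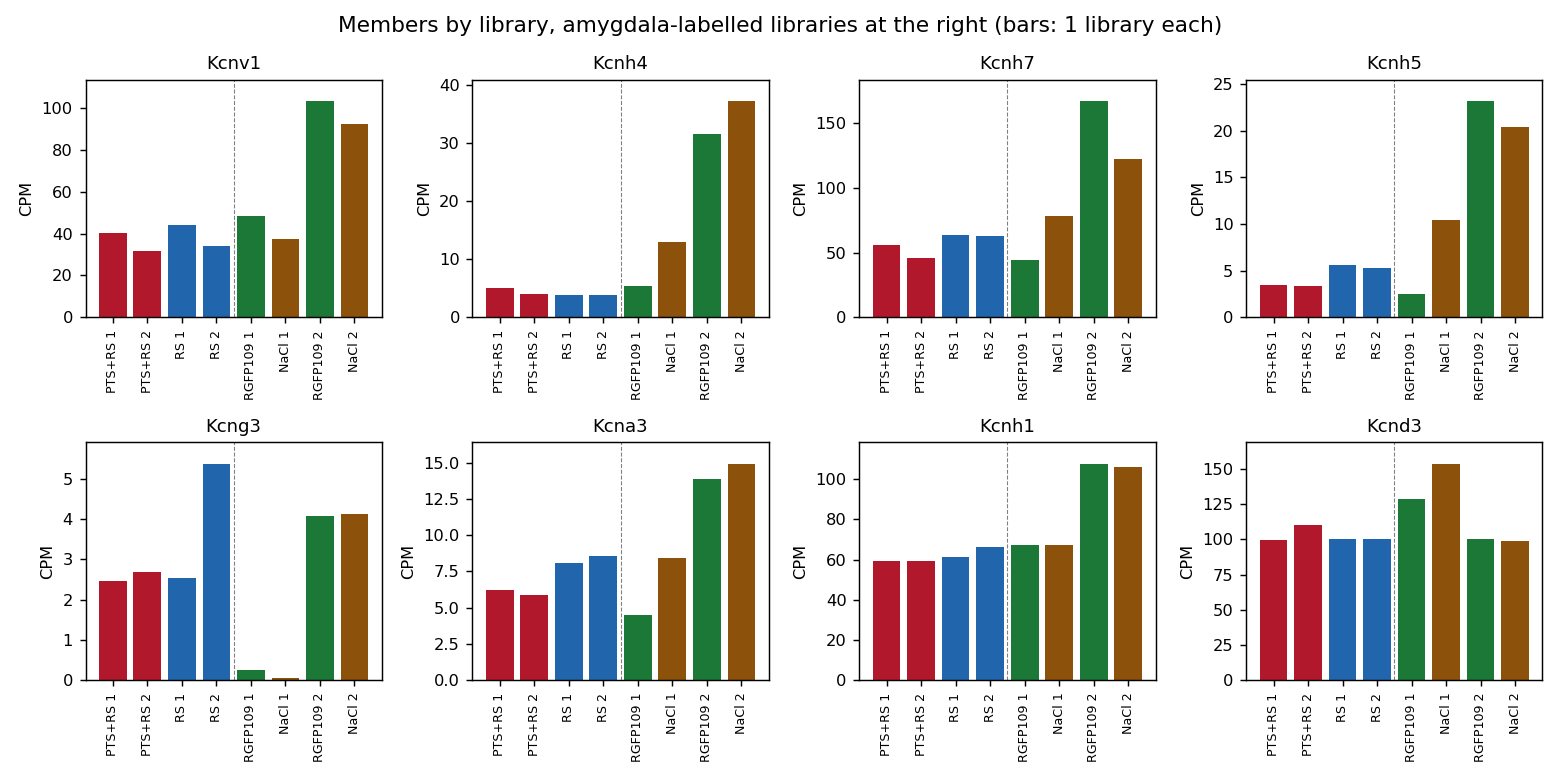
CPM of 8 Kv genes in each of the 8 libraries, 1 bar a library and axes from 0, with replicate 2 of RGFP109 and NaCl, labelled amygdala, at the right. Kcnv1, Kcnh4, Kcnh7, Kcnh5 and Kcnh1 are highest in both amygdala-labelled libraries, Kcng3 is near 0 in the cortex-labelled libraries of the second experiment only, and Kcnd3 is highest in the latter.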

How the data were processed

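RNA-seq libraries were compared within each of the 2 deposited tables. Per the labels and methods, the authors aligned paired-end reads with STAR 2.4.0 to GRCm38 (mm10) and counted them per gene with HTSeq 0.6.1. They deposited raw counts per gene and library, without normalization, which were used for all tests. They also deposited FPKM, which were used for levels between genes. In each library FPKM equalled the count over gene length times 1 factor. Columns of group means, fold changes and p-values by the authors, and 8 per-library columns of normalized signal, were not used. The labels and the methods name different library kits, so whether counting used strand is uncertain. No count lay outside a named gene.

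All 28229 genes of the second table were matched to identifiers by position. Genes were filtered by filterByExpr, counts scaled by TMM and groups compared by edgeR 4.0.16 (R 4.3.3) with the quasi-likelihood test and Benjamini-Hochberg adjustment over all tested genes. A gene was called at an adjusted p under 0.05. CPM used the TMM-scaled library size, and log2 ratios of single libraries a prior count of 2. DESeq2 1.42.0, limma-voom (limma 3.58.1), upper-quartile scaling, no filter, a replicate block, treatment as a term and leaving out each library were tried as alternatives. Scripts were tested on simulated data. Genes, lists, markers and comparisons were chosen with earlier results of these data known. Values per library were given for called genes, the 3 highest and 3 lowest estimates of each comparison, the genes of highest and lowest level, fixed core subunits, and extreme or called partners. Values of some of these genes are not reported or plotted here, although counts over all members include them. The ratio within replicate number 2 was chosen as an alternative after seeing the data, as were genes named for NaCl replicate 1.

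Deviations of same-numbered libraries correlated at 0.041 in the first experiment. In the second they correlated at 0.28, where the number is also the labelled tissue. Replicate libraries differed well beyond counting error (mean chi-square per gene from 4.95 to 83.8), so their spread, more than depth, sets the precision. Filter codons were read from GENCODE M21 and promoter sequence from RefSeq (GRCm38.p6).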

Additional observations from a re-analysis of the deposited data

Results flagged for a closer look

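The median ratio of the Kv genes between RGFP109 and NaCl had opposite signs in the 2 replicate numbers. The median log2 ratio of RGFP109 over NaCl over the 36 tested genes was −0.12 within replicate number 1, labelled cortex, and 0.033 within replicate number 2, labelled amygdala. Each is 1 library against 1 other, the difference was not tested, and replicate number 1 contains the library with olfactory bulb markers.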

How the results depend on the processing

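For PTS + RS against RS the median over the Kv genes stayed below 0 under every alternative run. Genes called numbered 624 and Kv genes called 2. Without the filter on low counts they were 1835 and 4 (6.1% of genes), with Kcna1 and Kcnd2 joining Kcna4 and Kcnh3, and leaving out 1 library in turn they ran from 371 to 2691 and from 0 to 7. DESeq2, limma-voom, upper-quartile scaling and the replicate block all called Kcna4 and Kcnh3 alone, and with the replicate block 915 genes were called. Deviations of same-numbered libraries in that experiment correlated at 0.041, which does not settle whether the numbers pair the libraries.

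For RGFP109 against NaCl, leaving out 1 library in turn gave 0 to 93 genes called and 0 Kv genes, with a Kv median log2 fold change from −0.21 to 0.32 (0.041 with all libraries); the sign turned without RGFP109 replicate 2. With the replicate block it was 0.017. Kcnh8 ran from −1.87 without NaCl replicate 2 to 0.49 without NaCl replicate 1.

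For the tissue labels, genes called were 416 by DESeq2 and 13 without the filter, against 0, and Kv genes called were 4 by DESeq2. Leaving out 1 library in turn gave 0 to 5383 genes, 0 to 25 Kv genes and a Kv median from 0.045 to 0.34 (0.058 with all libraries). That median was 0.24 by limma-voom, 0.11 without the filter and 0.23 with treatment as a term. Kcnh6 ran from −1.75 without RGFP109 replicate 1 to 0.29 without NaCl replicate 1, and Kcng2 from −2.14 without NaCl replicate 1 to 1.66 without RGFP109 replicate 1. The cause was not tested. Of the values for single Kv genes under alternatives, 153 kept their direction and call, 11 gained and 4 lost the call, and 3 changed sign. With 2 libraries a group, 1 library sets many of these values.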
